A study of Mus musculus with 16 samples.

Results

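The promoters of 46 cytosolic ribosomal protein genes, 27 of the large (60S) subunit and 19 of the small (40S) subunit, were examined in mouse liver chromatin, out of 22208 protein-coding genes annotated outside the Y and mitochondrial chromosomes. The rule lists the genes by name and sets no threshold on a measured value. For each gene, every peak lying within 2.5 kb of an annotated transcription start was taken as a promoter DNase hypersensitive site (DHS), and peaks of different lists were joined into 1 region where they overlapped by at least 1 bp. The set had been proposed as one that varies little between sexes and strains.

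Every ribosome holds 1 copy of most of these proteins, so a growing or secreting cell such as the hepatocyte transcribes their genes at a high and balanced rate. Mammalian ribosomal protein genes are textbook housekeeping genes, with short, CpG-rich promoters and transcripts that begin within a run of pyrimidines. That run lies at the 5′ end of the mRNA, where it is read by the translation machinery in response to nutrients and growth signals through the mTOR pathway. DNase I cuts DNA that is free of nucleosomes, and a promoter DHS therefore marks an open start site rather than the amount of RNA made from it.

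DNase-seq libraries had been made from livers of C57BL/6J (B6) mice and of CAST/EiJ (CAST) mice of both sexes, with 4 libraries for each sex and strain and 16 in all. B6 is an inbred laboratory strain and CAST is a wild-derived inbred strain of a different mouse subspecies, and the mice were 8 weeks old by their sample labels, which name no treatment, transgene or deletion. The DNase I digestion of the liver nuclei used 32 units of enzyme. The 4 libraries of each group were combined before peaks were called, so that each group is 1 list, the 4 lists hold no replicate error, and no test between them was possible. The intervals given below cover counting error only.

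The lists held between 24888 (female CAST) and 39562 (male CAST) peaks, and the median read pileup at a summit was 79 and 61 in B6 males and females, and 78 and 47 in CAST males and females. The background read depth across the genome, as recovered from the peak statistics, was 15.4, 13.9, 14.3 and 7.94 reads in the same order, so the female CAST list was the shallowest. Promoters of the hepatocyte genes Alb, Apoa1, Ttr, Hnf4a and Cebpa held a DHS in all 4 lists. Those of the Kupffer cell genes Clec4f and Emr1, the bile duct gene Krt19 and the stellate cell genes Lrat and Des held none in any list. The sinusoidal endothelial gene Stab2 and the bile duct gene Sox9 held at least 1 DHS in each list, and the endothelial gene Lyve1 in male B6 alone. The part of other liver cells in the values of the ribosomal protein genes was not tested.

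The RefSeq promoter table (assembly GRCm38.p6) had entries for 36 of the 46 genes, with 43 start sites that were placed in mm9 by an exact match of the 300-base promoter sequence. Rpl3, Rpl7, Rpl8, Rpl30, Rpl32, Rplp1, Rps14, Rps20, Rps27a and Rps29 had no entry. A run of at least 8 pyrimidines reaching to within 5 bases of a RefSeq start was found at 14 of the 36 genes (38.9%). The same holds for 11.6% of all 14849 protein-coding genes with an entry, and for 11.9% of the 7057 among them with a promoter DHS in all 4 lists. Runs at 8 of the genes are shown from long to short. Whether transcripts begin within them was not tested, and at Rpl4 the run ends upstream of the RefSeq start. Each line gives 30 bases of mm9 on the strand of the gene, 5′ to 3′, with the pyrimidine run in capitals.
Rpl34, chr3:130433248-130433277, minus strand: acccgCCCCTTCCTTTTCCTCTTCCgggga
Rpl35, chr2:38860634-38860663, minus strand: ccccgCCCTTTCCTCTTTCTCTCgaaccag
Rpl15, chr14:19103480-19103509, minus strand: gaaagCCTTCTTCCTTTCCTCTggcggcag
Rpl4, chr9:64021171-64021200, plus strand: acaagTCTTTCCTTTTCCTgtgggagcagc
Rpl14, chr9:120480621-120480650, plus strand: gcgggCCCTCTCTCTTCTCgctgagcgccg
Rps18, chr17:34092588-34092617, minus strand: ttccgCTCTCTCTTCCacaggaggcctaca
Rps6, chr4:86503248-86503277, minus strand: tcgggCCTCTTTTTCgtgacgcctcccagg
Rps24, chr14:25309892-25309921, plus strand: tggggTCCTTCCTTgcgcgttgatatgatt

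These runs measured 20 bases at Rpl34, 18 at Rpl35, 17 at Rpl15, 14 at Rpl4 and Rpl14, 11 at Rps18, 10 at Rps6 and 9 at Rps24. Of the genes shown, Rpl35 and Rps24 were among the 3 with the lowest fold enrichment, while Rpl15 and Rpl14 lay in the upper part of the range, so the run was seen at both ends of the order of levels. No relation between the run and the level was tested.

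Around the start, the letters CGGAAG, the core of the site for ETS family factors, occurred on either strand between 250 bases before and 50 bases after the annotated start at 27 of the 46 genes (58.7%). They occurred at 33.1% of the 9848 protein-coding promoters with a DHS in all 4 lists and at 20.2% of all protein-coding promoters. The letters TATAA were found at 14 genes (30.4%, against 13.3% and 23.6%). The letters GGGCGG of the GC box were found at 19 (41.3%, against 64.2% and 44.1%). The CCAAT letters were found at 16 (34.8%, against 39.5% and 37.9%), CACGTG at 7 (15.2%, against 10.4% and 7.72%), and ATGGCG, the core letters of YY1 sites, at 11 (23.9%, against 16.5% and 10.7%). TCTCGCG occurred at 6 genes (13%, against 6.08% and 3.42%), the CRE letters TGACGTCA at 4 (8.70%, against 3.67% and 2.30%) and the NRF1 letters GCGCNTGCG at 2 (4.35%, against 15.7% and 8.29%). None of these letter strings is part of another, but matches to different strings may overlap in the genome, and a match does not show that a factor was bound. Promoters with the ETS letters close to the start are shown for Rps21 and Rpl37, for the acidic stalk genes Rplp2 and Rplp1, which had the highest 60S level and the largest ratio between strains in females, and for Rpl8, which lacked a DHS in 1 list. Each line runs from 150 bases before the annotated start to 10 after it, with the letters CGGAAG or their reverse complement in capitals.
Rps21, chr2:179991932-179992092, plus strand: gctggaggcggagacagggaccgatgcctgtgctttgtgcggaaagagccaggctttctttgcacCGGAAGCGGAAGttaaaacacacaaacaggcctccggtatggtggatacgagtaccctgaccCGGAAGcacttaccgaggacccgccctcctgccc
Rpl37, chr15:5066463-5066623, plus strand: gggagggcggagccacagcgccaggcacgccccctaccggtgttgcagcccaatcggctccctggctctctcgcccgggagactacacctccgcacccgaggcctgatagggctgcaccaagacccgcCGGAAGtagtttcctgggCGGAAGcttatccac
Rplp2, chr7:148633119-148633279, plus strand: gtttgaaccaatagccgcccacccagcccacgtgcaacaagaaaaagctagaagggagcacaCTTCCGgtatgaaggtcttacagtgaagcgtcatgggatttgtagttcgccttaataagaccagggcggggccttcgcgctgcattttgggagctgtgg
Rplp1, chr9:61762335-61762495, minus strand: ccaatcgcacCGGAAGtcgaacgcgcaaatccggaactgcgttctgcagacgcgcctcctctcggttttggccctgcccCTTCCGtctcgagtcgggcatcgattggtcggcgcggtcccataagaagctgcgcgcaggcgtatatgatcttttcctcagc
Rpl8, chr15:76734351-76734511, plus strand: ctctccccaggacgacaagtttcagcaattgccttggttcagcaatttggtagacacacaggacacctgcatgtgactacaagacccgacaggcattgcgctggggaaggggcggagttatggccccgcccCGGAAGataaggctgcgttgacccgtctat

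These are mm9 reference sequences, from a B6 mouse, and the bases of CAST at the same places were not analysed here. The closest match to the annotated start lay 4 bases upstream of it at Rpl37, 19 at Rpl8, 23 at Rps21, 71 at Rplp1 and 88 at Rplp2. The RefSeq start of Rplp2 lies 281 bp downstream of its annotated start, so the match is farther from that start. The median GC content between 250 bases before and 50 after the start was 56.5% at the ribosomal protein genes and 60.8% at promoters with a DHS in all 4 lists. By a GC content of at least 50% and an observed over expected CpG ratio of at least 0.6, 33 of the 46 promoters (71.7%) were CpG-rich, against 70.2% of promoters with a DHS in all 4 lists and 42.5% of all.

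In both B6 lists and in male CAST all 46 genes had a promoter DHS, and 45 had one in female CAST. A promoter DHS was thus present in all 4 lists at 45 of 46 genes (97.8%), against a background of 44.3% of all protein-coding genes. All 19 genes of the 40S subunit and 26 of the 27 genes of the 60S subunit had a DHS in every list. At 44 genes the peaks nearest to the start in the 4 lists fell in 1 joined region, as they did at 94.1% of the promoters with a DHS in all 4 lists.

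Rpl8 (chr15:76734501-76736748, plus strand), which codes for the large subunit protein uL2 near the peptidyl transferase centre, was the gene without a promoter DHS in female CAST. Its fold enrichment was 3.69 and 3.06 in B6 males and females and 4.58 in CAST males, from summit pileups of 107, 60 and 119 reads. The −log10 q was 26.8, 11.1 and 38.6 in these lists, whereas the lowest among the female CAST peaks nearest to a ribosomal protein gene start, that of Rpl35, had a −log10 q of 7.25. A peak list holds no value where no peak was called, so the level at Rpl8 in female CAST is not known, and the absence stands in the shallowest list.

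Rpl24, coding for a large subunit protein at the interface with the small subunit, was counted as present in all 4 lists through a peak at another of its annotated starts. Peaks at the main start had a fold enrichment of 5.02 and 2.88 in B6 males and females and 3.61 in CAST males, with summit offsets of −20, −32 and −98 bp. In female CAST no peak covered this start, and the nearest peak, with a fold enrichment of 3.03, had its summit 7356 bp downstream. With peaks near the main start alone, 44 genes had a DHS in all 4 lists.

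In the level of the DHS, the ribosomal protein genes lay around the middle of the open promoters of each list, with wide differences between genes. Fold enrichment, the read pileup at the summit over the local background, had a median over the genes of 6.69 and 5.14 in B6 males and females, and 6.64 and 5.49 in CAST males and females. The medians of the 9848 promoters with a DHS in all 4 lists, which include 45 of the ribosomal protein genes, were 6.07, 4.47, 6.26 and 5.13. The median ribosomal protein gene stood at percentile 57.8, 62.2, 54.8 and 55.9 of these promoters. The genes themselves ranged from 2.38 to 16.2 in B6 males, from 2.40 to 12.5 in B6 females, from 2.08 to 17.2 in CAST males and from 2.48 to 13.7 in CAST females.

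The order of the genes was much the same in each list. Spearman's rho of fold enrichment between pairs of lists was 0.913 to 0.955 over the 44 genes whose peaks share a region, and 0.867 to 0.920 over 9269 promoters of the same kind. These are descriptions across genes, which are not independent replicates, and the lists share the base composition and mappability of each promoter.

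**Figure D1:**
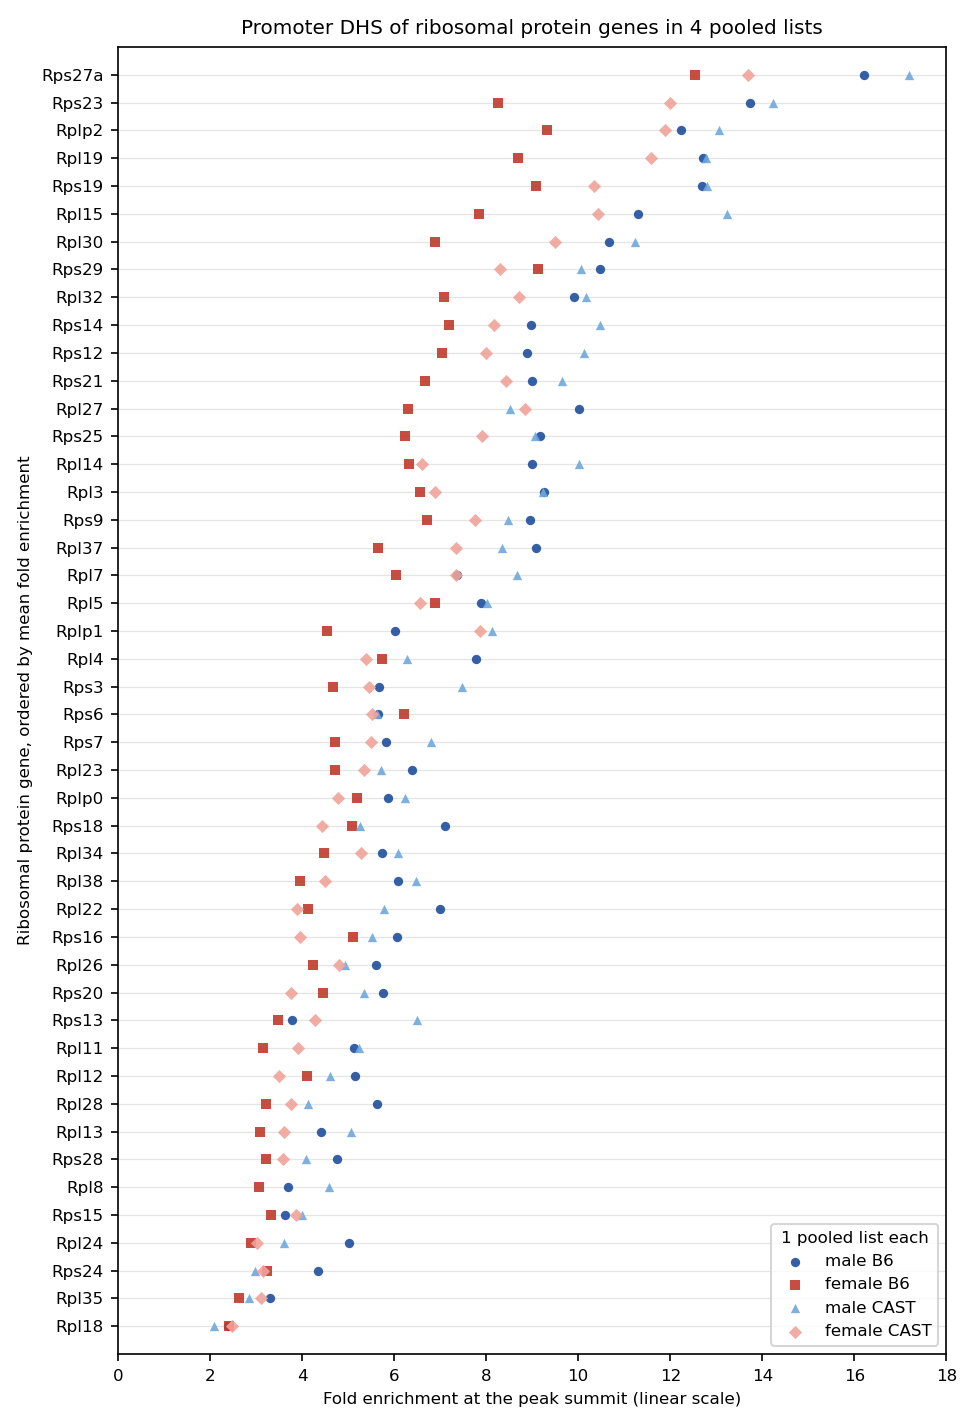
Fold enrichment at the summit of the promoter DHS (horizontal axis, linear scale) for the 46 ribosomal protein genes (vertical axis, ordered by their mean), with 1 point for each pooled list. Rps27a lies highest in every list, Rpl18, taken at its annotated start, has the lowest mean, and Rpl8 has no point for female CAST.

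Among the genes of the 60S subunit, the median fold enrichment was 6.39 and 4.71 in B6 males and females, and 6.28 and 5.37 in CAST males and females. The highest by the mean over lists was Rplp2, coding for an acidic protein of the stalk that recruits translation factors, with 12.2 and 9.33 in B6 males and females, and 13.1 and 11.9 in CAST males and females. Its values were highest in the 2 male lists, and the female CAST value was close to them. Rplp0, the base of the same stalk, had 5.86, 5.18, 6.24 and 4.77, and Rplp1 had 6.02, 4.54, 8.13 and 7.85, so Rplp2 lay above the other stalk genes in every list.

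Rpl19 and Rpl15 followed Rplp2 within the large subunit by this mean, and Rpl19 was above it in male B6 and Rpl15 in male CAST. Rpl19 had a fold enrichment of 12.7 and 8.69 in B6 males and females, and 12.8 and 11.6 in CAST males and females. Rpl15, coding for a protein of the large subunit core, had 11.3, 7.85, 13.2 and 10.4. Both were lowest in female B6.

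At the peaks nearest to the annotated starts, Rpl18, Rpl35 and Rps24 had the lowest mean fold enrichment of the 46 genes. Rpl18 had 2.38 and 2.40 in B6 males and females, and 2.08 and 2.48 in CAST males and females, and its local background, 76.3, 37.8, 68.2 and 26.4 reads, was well above the background across the genome. The peak by the RefSeq start of Rpl18 had a higher fold enrichment, 3.10, 2.82, 3.23 and 3.37, and with it Rpl18 would not be the lowest. Rpl35, coding for a protein at the exit of the peptide tunnel, had 3.31, 2.63, 2.85 and 3.10. Neither followed the general order of male above female in CAST, where both had the higher value in females.

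Among the genes of the 40S subunit, the median fold enrichment was 7.11 and 6.21 in B6 males and females, and 7.46 and 5.51 in CAST males and females, above that of the 60S genes in each list. The highest of all 46 genes was Rps27a (chr11:29445846-29448109, minus strand), which codes for a fusion of ubiquitin with a small subunit protein, with 16.2 and 12.5 in B6 males and females, and 17.2 and 13.7 in CAST males and females. In all 4 lists it lay at percentile 99.1 or above among the promoters with a DHS in every list. Its DHS also covers the start of 1700034F02Rik on the opposite strand, 159 bp away, and the reads of the 2 starts cannot be told apart.

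Rps23, which codes for a protein of the decoding centre, had a fold enrichment of 13.7 and 8.26 in B6 males and females, and 14.2 and 12.0 in CAST males and females. Rps19, mutated in Diamond-Blackfan anaemia, had 12.7, 9.07, 12.8 and 10.3. At the other end, Rps24 had 4.35, 3.23, 2.98 and 3.14. Rps6, coding for the main phosphorylated protein of the small subunit, had 5.65, 6.21, 5.62 and 5.51 and was the only 40S gene whose highest value of the 4 lists was that of female B6.

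The promoter DHS of the ribosomal protein genes were about as wide as those of other open promoters in the 4 lists. Their median width was 838 bp and 745 bp in B6 males and females, and 844 bp and 625 bp in CAST males and females, against 889, 746, 872 and 674 bp. By the mean over lists, the widest were at Rpl7, with 1838, 1564, 1686 and 1324 bp, and at Rplp1, with 1568, 866, 1009 and 1037 bp. By the same mean, the narrowest were at Rps28, with 587, 410, 559 and 302 bp, and at Rpl18, with 649, 375, 466 and 386 bp. The peak by the RefSeq start of Rpl18 was wider, with 672, 611, 608 and 601 bp. At Rpl7 the site extended far upstream of the start in each list, whereas at Rplp1 only the male B6 peak did so.

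Open chromatin covered the annotated start at nearly every one of these genes. The peak nearest to the start covered it at 45 of 46 genes in B6 males, 44 of 46 in B6 females and in CAST males, and 43 of 45 in CAST females. The background shares among promoters with a DHS in all 4 lists were 85.7%, 80.5%, 85.3% and 77.8%. The summit lay within 300 bp of the start at 97.8%, 95.7%, 97.8% and 93.3% of the genes, against 79.2%, 77.1%, 78.1% and 76.0%. It seldom lay at the start itself: 9, 8, 4 and 3 genes had a summit within 50 bp (19.6%, 17.4%, 8.70% and 6.67%, against 14%, 13.9%, 12.9% and 12.8%).

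Summits fell on either side of the start, and which side depends on the start used. In male B6 the summit was upstream at 22 genes and downstream at 24, and the middle 50% of offsets ran from −103 to 107 bp, while from the RefSeq starts of 36 of the genes it was upstream at 22 and 21 in B6 males and females and at 18 and 16 in CAST males and females. At 44 genes with 1 region in all 4 lists, the summit stayed upstream in every list at 15 and downstream in every list at 16, in all 31 genes (70.5%) against a background of 77.5%. The range of the 4 summits had a median of 83 bp, against 84 bp over other open promoters. The closest 4 summits were at Rps19, with offsets of −74, −84, −77 and −76 bp, a range of 10 bp.

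**Figure D2:**
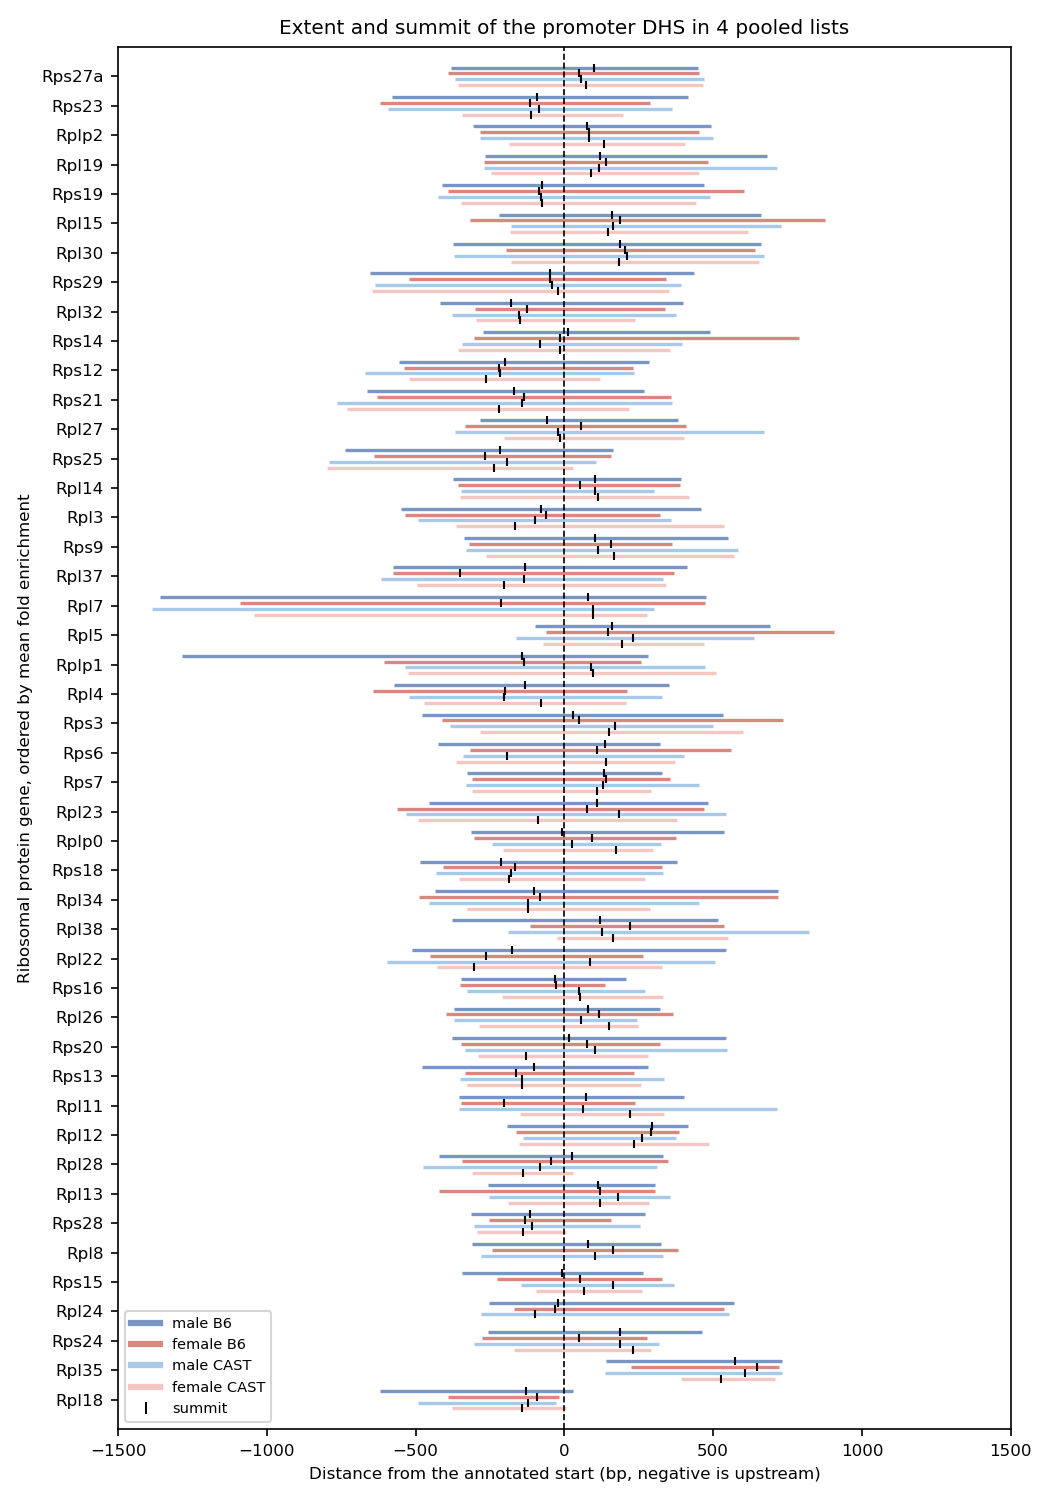
Extent (coloured line) and summit (black tick) of the peak nearest to the annotated start of each ribosomal protein gene, by distance from that start in bp (negative is upstream), in the 4 pooled lists. Nearly all lines cross the start at 0, summits lie on both sides of it, Rpl35 lies downstream in every list, and the distant female CAST peak of Rpl24 is outside the axis.

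By the median over lists, the summits farthest from the annotated start were those of Rpl35, Rpl12 and Rps25, while in single lists Rpl24 reached 7356 bp and Rpl37 −352 bp. At Rpl35 the summit lay 575 and 649 bp downstream in B6 males and females and 608 and 528 bp in CAST males and females. Its RefSeq start lies 493 bp downstream of the start used here, so the same summits lay 82, 156, 115 and 35 bp from the RefSeq start. At Rpl12, part of the base of the stalk, the summits lay 293, 290, 261 and 234 bp downstream, and its RefSeq start is 153 bp downstream. At Rps25 the summit offsets were −217, −268, −192 and −236 bp, in a site that also covers the start of Trappc4 on the opposite strand, 166 bp away.

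Rpl18 had 4 promoter peaks in each list except female CAST, which had 2. The 2 others lay upstream, with summit offsets of −2794, −2794 and −2795 bp (fold enrichment 3.73, 2.85 and 3.58, the highest of Rpl18 in those lists) and of −1686, −1658 and −1564 bp (2.53, 2.68 and 2.04) in male B6, female B6 and male CAST. A peak ending near the annotated start was called in all 4 lists, and a further peak lay 2474, 2468, 2452 and 2808 bp downstream by its summit in B6 males, B6 females, CAST males and CAST females. The RefSeq start of Rpl18 lies 2614 bp downstream of the annotated one, close to this further peak, whose fold enrichment was 3.10, 2.82, 3.23 and 3.37. Sphk2, on the opposite strand, has an annotated start 250 bp from that of Rpl18, and the part of Sphk2 in these sites was not tested. The fold enrichment at the RefSeq start was above that at the annotated start in each list.

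Of the 36 genes with a RefSeq entry, 15 had a RefSeq start at exactly the annotated position and 7 had their nearest RefSeq start over 100 bp away. Measured from the RefSeq start, the nearest summit lay within 300 bp at 36 and 34 of these 36 genes in B6 males and females, and at 36 and 35 in CAST males and females. Rpl11, Rpl24 and Rpl35 had 2 promoter peaks in each list. The other peak of Rpl35, with summit offsets from −2696 to −2595 bp, had a fold enrichment of 3.73 and 3.11 in B6 males and females and 3.27 and 2.77 in CAST males and females, above the peak nearest to the start in each list except female CAST. The other peak of Rpl24, at a start further downstream, had 4.69, 4.22, 4.46 and 3.98, below the nearest peak in male B6 alone. At Rpl11 the second lay near a start 22 kb downstream, with a fold enrichment of 4.04, 2.93, 4.58 and 3.36, beside 5.12, 3.15, 5.23 and 3.91 at the main start. The main peak of Rps15 had 3.62, 3.31, 3.99 and 3.87, and that of Rps18 had 7.11, 5.07, 5.25 and 4.44. Rps15 and Rps18 had further weak peaks in male CAST and Rps19 in female B6, all with a fold enrichment of at most 2.19.

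Between the sexes, the fold enrichment of these genes was higher in males, as it was at most open promoters. It was higher in male than in female B6 at 43 of 45 genes (background 94.0%) and higher in male than in female CAST at 41 of 45 (background 85.7%). At 37 of the 45 genes both male lists lay above both female lists (background 69.7%). Rpl24 is counted in these with a female CAST peak whose summit lay 7356 bp downstream, so its comparisons with female CAST set different sites side by side. The genes against this direction were Rps6 and Rpl18 in B6 (at the peak by the RefSeq start of Rpl18, male B6 with 3.10 was above female B6 with 2.82), and Rpl18, Rpl27, Rpl35 and Rps24 in CAST. The whole set of 9848 promoters was shifted by a median of 0.41 on the log2 scale in B6 and 0.25 in CAST, and the lists differ in depth and in the number of peaks.

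After this shift was subtracted, the ratios of the ribosomal protein genes lay on both sides of 0. The median centred log2 ratio of male over female was 0.01 in B6 and −0.01 in CAST over 45 genes, with 24 above 0 and 21 below in B6 and 21 above and 24 below in CAST. None of the 45 passed 1.5-fold in either strain, against 4.49% of the promoters in B6 and 5.01% in CAST. Among promoters whose main peaks share 1 joined region, the shares were lower, 2.16% and 2.66% of 9269, beside 0 of 44 genes in each strain. The standard deviation over the genes was 0.21 and 0.19, against 0.32 and 0.33 over all 9848 promoters, including those without 1 joined region.

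Rps6 had the lowest ratio of male over female in B6, a centred log2 ratio of −0.55 with a 95% counting interval from −0.91 to −0.18. It was followed by Rpl18 with −0.42 and Rps13 with −0.29. The highest were Rpl28 with 0.39, Rpl24 with 0.39 and Rpl22 with 0.35. At Rpl28, a large subunit protein gene, the fold enrichment behind this was 5.62 and 3.21 in B6 males and females, beside 4.12 and 3.76 in CAST males and females.

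In CAST the lowest ratios of male over female were at Rpl18, with −0.51 (counting interval −0.93 to −0.06), Rpl35, with −0.37, and Rps24, with −0.33. The highest were at Rps13, with 0.35, Rpl14, with 0.35, and Rpl22, with 0.32. Rpl22, which codes for an RNA-binding protein of the large subunit, was thus among the 3 highest in both strains. The ratios of Rpl18 are those of its peak at the annotated start, and at its RefSeq start the fold enrichment of 3.10 and 2.82 in B6 males and females and of 3.23 and 3.37 in CAST males and females gives ratios closer to the median of all promoters. The fold enrichment of Rpl22 was 6.99 and 4.12 in B6 males and females and 5.79 and 3.88 in CAST males and females, and that of Rpl14 was 9.00, 6.33, 10.02 and 6.60 in the same order. Rps13 was among the lowest in B6 and the highest in CAST, and this difference was not tested.

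Between the strains, the fold enrichment before centring was higher in CAST at 24 of 45 genes in males (background 56.1%) and at 34 of 45 in females (background 76.3%). The promoters as a whole were shifted by 0.03 in males and 0.19 in females on the log2 scale. The centred log2 ratio of CAST over B6 had a median of −0.02 in males and 0.00 in females over the ribosomal protein genes. Its standard deviation was 0.25 and 0.23, against 0.32 and 0.32 over all of these promoters, including those without 1 joined region. A single gene passed 1.5-fold in each sex, against 4.54% of promoters in males and 5.58% in females. Where the main peaks share 1 joined region, it was 1 of 44 genes in each sex, against 2.84% and 4.46% of 9269 promoters. With the pileup excess over background in place of fold enrichment, 1, 2, 4 and 5 of the genes passed 1.5-fold in the comparison of sexes in B6 and in CAST and of strains in males and in females, against 9.75%, 11.2%, 12.5% and 16.5% of promoters by the same measure. All 4 comparisons use the same 4 lists, so the strain and sex ratios are not independent of each other.

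Rps13 (chr7:123475021-123477704, minus strand), coding for a small subunit protein, had a fold enrichment of 3.78 and 3.48 in B6 males and females, and 6.49 and 4.27 in CAST males and females. The male CAST value stood apart from the other lists. Its centred ratio of CAST over B6 was 0.74 in males, with a counting interval from 0.37 to 1.13, and 0.11 in females. The summit pileups were 96 and 58 reads in B6 males and females and 151 and 42 reads in CAST males and females.

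Rplp1, an acidic stalk protein gene, was higher in CAST in both sexes. Its centred ratio was 0.40 in males, with a counting interval from 0.11 to 0.70, and 0.60 in females, with an interval from 0.18 to 1.02. The summit offset was −141 and −137 bp in B6 males and females, upstream of the start, and 89 and 97 bp in CAST males and females, downstream of it. Only 84.3% of the 50-base words within 250 bp of its start were unique in mm9, and the part of mappability in this ratio was not tested.

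The other genes at the ends of the strain ratio stayed within 1.5-fold. In males the lowest were Rps24 with −0.58 (counting interval −0.95 to −0.21), Rpl24 with −0.51 and Rpl28 with −0.48, and Rps3, coding for a protein at the mRNA entry channel, had 0.36. In females the lowest were Rps16 with −0.56 (−1.10 to −0.04), Rps20 with −0.44 and Rpl12 with −0.42, and Rps23 had 0.35 and Rpl27 0.30. The fold enrichment of Rps3 was 5.67 and 4.68 in B6 males and females and 7.46 and 5.46 in CAST males and females, highest in male CAST. That of Rps16 was 6.05, 5.10, 5.52 and 3.95 in the same order, that of Rps20 was 5.76, 4.46, 5.34 and 3.75, and that of Rpl12 was 5.15, 4.11, 4.61 and 3.50, and all of these were lowest in female CAST. Rpl27 had 10.02, 6.30, 8.51 and 8.84 and was lowest in female B6. Rps24 reached −0.23 in females and Rps16 −0.17 in males, in the same direction as in the other sex.

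**Figure D3:**
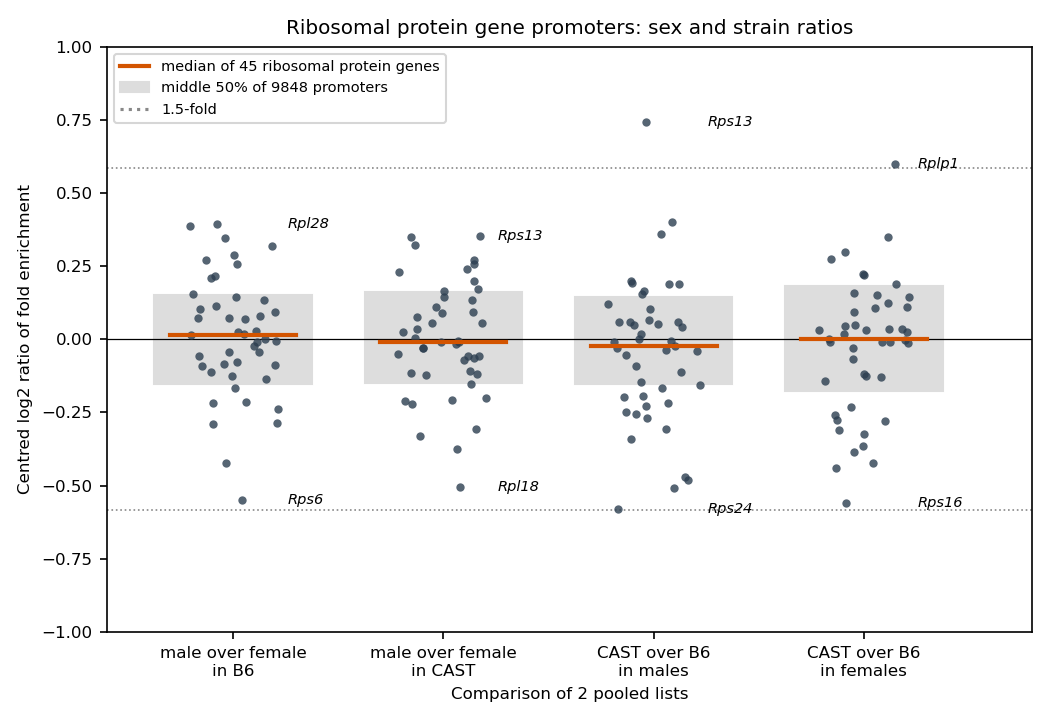
Centred log2 ratio of fold enrichment (vertical axis) for the 45 ribosomal protein genes with a promoter DHS in all 4 lists, in the 4 comparisons of pooled lists (horizontal axis). Each point is 1 gene, the orange line is their median, the grey box is the middle 50% of 9848 promoters and the dotted lines mark 1.5-fold; the points scatter about 0, and only Rps13 in males and Rplp1 in females lie above the upper dotted line.

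Most of these ratios were within the counting error of the pooled pileups. The 95% interval included 0 at 42 of 45 genes for male over female in B6, at 44 in CAST, at 37 for CAST over B6 in males and at 42 in females. The shares whose interval left out 0 among promoters with a DHS in all 4 lists were 12.2%, 9.44%, 17.6% and 9.9%. The interval reached a median of 0.36, 0.43, 0.32 and 0.46 to either side on the log2 scale.

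Other genes of protein synthesis were read in the same way. Of 39 further cytosolic ribosomal protein genes, 31 (79.5%) had a promoter DHS in all 4 lists, and Rpl3l, Rpl10l and Rpl39l, which code for tissue-restricted paralogs, had none in any list. The remaining incomplete genes were Rpl6, Rpl36 and Rpl37a, which lacked a DHS in female B6, Rpl31, which lacked it in female CAST, and Rps4x, which lacked it in both female lists. Rpl36 had the lowest mean level, with 1.84 in both male lists and 2.29 in female CAST. The median fold enrichment of these further genes was 5.66 and 4.64 in B6 males and females, and 5.77 and 5.46 in CAST males and females. Each was below that of the 46 genes described here.

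Mitochondrial ribosomal protein genes had a promoter DHS in all 4 lists at 71 of 76 genes (93.4%), with medians of 6.09, 4.38, 6.36 and 5.13. Translation factor genes had one at 35 of 39 (89.7%) with medians of 8.67, 6.20, 8.68 and 6.85, the highest of these gene lists in each list of peaks except female B6, where the 40S genes had 6.21. Ribosome biogenesis and RNA polymerase I genes had one at 37 of 43 (86.0%), with medians of 6.78, 5.27, 6.40 and 5.62, and Taf1b had none in any list. The highest mean level among all of these other genes was at Rpl10, a cytosolic ribosomal protein gene on chromosome X, with 18.3 and 12.8 in B6 males and females and 19.9 and 14.2 in CAST males and females, above Rps27a in each list. Mrps28 followed, with 16.7, 12.2, 17.4 and 15.8.

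**Figure D4:**
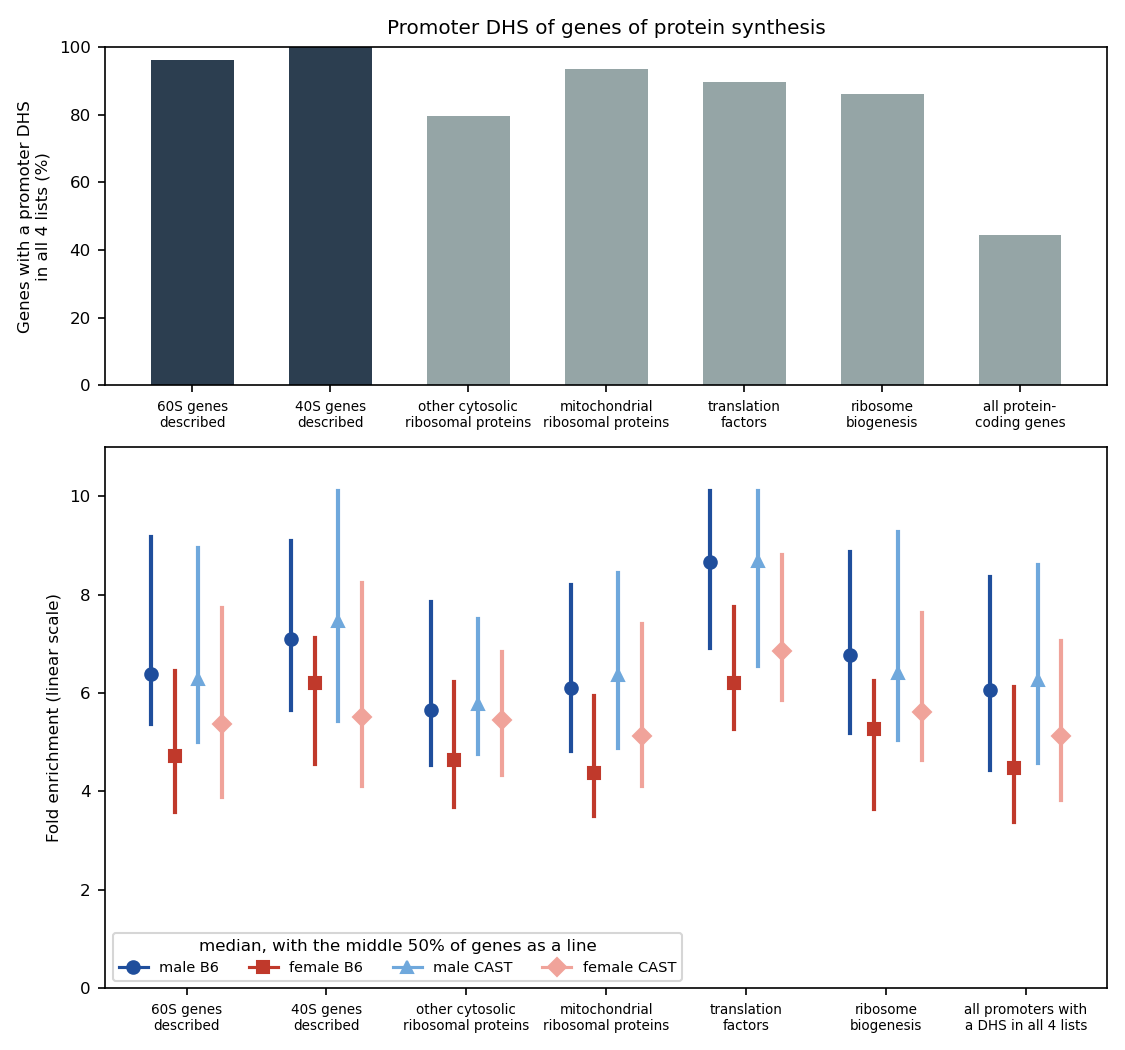
Upper panel: share of genes (%) with a promoter DHS in all 4 pooled lists, for the 60S and 40S genes described here, 4 other gene lists and all protein-coding genes. Lower panel: median fold enrichment in each list with the middle 50% of genes as a line; translation factor genes have the highest medians except in female B6, where the 40S genes do, and the 40S genes lie above the 60S genes in each list.

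Small nucleolar RNAs, which guide the modification of ribosomal RNA, were annotated inside 15 of the 46 genes (32.6%), 25 in all, against 3.26% of genes with a promoter DHS in all 4 lists. Rpl4 held 5 of them, and Rpl5 and Rps12 held 3 each. A start on the opposite strand lay within 1 kb at 8 genes (17.4%, against 21.2%), the closest being Ndufa7 at 29 bp from Rps28 and Lrsam1 at 33 bp from Rpl12.

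Ribosomal protein genes have many processed copies in the genome, and the study kept uniquely mapped reads only. Within 250 bp of the start, every 50-base word was unique in mm9 at 31 of the 46 genes (67.4%), against 92.7% of promoters with a DHS in all 4 lists. The lowest share of unique words was 65.9%, at Rps29. Its fold enrichment was 10.5 and 9.12 in B6 males and females, and 10.1 and 8.31 in CAST males and females, in the upper part of the set. The share was 88.1% at Rpl5 and 89.6% at both Rpl12 and Rpl35. The most frequent word occurred 234 times in mm9 at Rpl5, 4 times at Rpl12 and 31769 times at Rpl35. Whether the repeated words belong to processed copies was not tested, nor was the part of mappability in the levels of these genes.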

How the data were processed

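The authors aligned uniquely mapping DNase-seq reads with Bowtie2 to mm9 (for CAST, to a genome carrying CAST variants, with positions converted back to mm9), merged the 4 libraries of each group and called peaks with MACS2. The versions are not printed here. Per the labels and the values, each deposited list gives a fold enrichment (the ratio of summit pileup plus 1 to local background plus 1), −log10 p and −log10 q within the list, a score of 10 times −log10 q and the summit's position within the peak. The deposited files used here hold peaks of pooled libraries, with no value per library. No value below therefore has a replicate error, and no test was made.

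Starts were taken from GENCODE vM1 on NCBIM37 (mm9), the representative start being the one shared by most protein-coding transcripts. The peak nearest to it within 2.5 kb of any start gave the values. Pileups and local backgrounds were recovered from fold enrichment and −log10 p. The pileups were whole within 0.02 at 99.86% of peaks in male B6 and at 99.91% or more in the other lists. Ratios were log2 of fold enrichment, minus the median of 9848 promoters with a DHS in all 4 lists, with exact (Clopper-Pearson) 95% intervals of the pileups, and 1.5-fold marked the calls. A pooled pileup of reads without molecular identifiers gives counting error only. RefSeq starts were placed by exact sequence match, and 50-base words were counted over the whole genome. Scripts used Python 3.11.15, numpy 2.4.6, pandas 2.3.3, scipy 1.17.1, pysam 0.24.0 and samtools 1.23.1, and were tested on simulated data.

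The genes and the other gene lists were chosen with earlier results of these data known. All 46 genes could be named. Values in 4 lists were given for genes missing a DHS, the 3 highest and 3 lowest by mean fold enrichment, the 2 widest and 2 narrowest, the 3 farthest summits, the 3 largest centred ratios in each direction and genes with several peaks. A few others were named after their values were seen.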

Additional observations from a re-analysis of the deposited data

How the results depend on the processing

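Of 85 values recomputed under other settings, 71 stayed within a limit and 14 moved beyond it. The limit was the order-statistic interval of a median over the genes, or 1.5 times for a count. Medians close to 0 changed sign within it, namely centred log2 ratios and summit offsets, whose sign moved with the start used. The offsets were 13.5, 16, 56.5 and 66 bp in male B6, female B6, male CAST and female CAST, 3, −34.5, −62 and −16 bp from the nearest start of any transcript, and −34.5, −69.5, −37.5 and 25.5 bp from the nearest RefSeq start. The number of genes with a DHS in all 4 lists was 45 with a window of 1 kb (42.4% of all protein-coding genes), 45 with lists cut to an equal size of 24888 peaks (42.6%) and 44 with the representative start alone (41.8%). With peaks of −log10 q of at least 15.7 it was 30 (27.7%), and the median fold enrichment in female CAST was 7.80 in place of 5.49, since weaker peaks were left out. Without centring, the median log2 ratio was 0.43 for male over female in B6, 0.24 in CAST and 0.19 for CAST over B6 in females. The genes past the fold limit, 0, 0, 1 and 1 in the 4 comparisons in that order (sex in B6, sex in CAST, strain in males, strain in females), became 1, 2, 4 and 5 with pileup excess over background in place of fold enrichment (9.75%, 11.2%, 12.5% and 16.5% of all open promoters) and 5, 6, 8 and 8 at the lower fold limit tried (18.6%, 20.4%, 18.4% and 25.1%). At 2-fold there were 0 and 0 in both strain comparisons (1.52% and 1.07%). The cause of the change with pileup excess was not tested. The summit offsets from RefSeq starts and the ratios of genes with 1 joined region were settings chosen after seeing the data. No paired analysis was possible because each group is 1 list of merged libraries in the files used here, which hold no values for the 4 libraries of a group, so that no replicate could be left out either. The depth of female CAST limits what its list can show.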
